A study of Mus musculus with 8 samples.

Results

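Brush border enzymes finish the digestion of sugars at the surface of the intestine, and 6 genes of this kind are described here in late fetal mouse gut epithelium. They are 4 disaccharidase genes, Lct, Sis, Mgam and Treh, and 2 intestinal alkaline phosphatase genes, Alpi and Akp3. The members were chosen by gene name, and all 6 are among the 23393 genes of the expression table.

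Lactase (Lct) splits milk sugar, sucrase-isomaltase (Sis) splits sucrose and the products of starch digestion, maltase-glucoamylase (Mgam) releases glucose from maltose and short starch chains, and trehalase (Treh) splits trehalose. The alkaline phosphatases sit on the same apical membrane and remove phosphate groups from nutrients and from bacterial lipopolysaccharide. In mice and rats the enterocyte changes its enzymes at weaning: lactase falls, while sucrase-isomaltase and trehalase rise with the change from milk to solid food. Of the phosphatases, Alpi is known as the global form, present along the gut, and Akp3 as the duodenal form, described in mouse as rising at weaning.

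Poly(A) RNA was measured in 8 libraries of epithelium from E16.5 mouse embryos, with 2 libraries each of proximal small intestine (written here as intestine), colon, hindstomach (the glandular stomach) and forestomach (the squamous stomach). All groups were untreated and, per the labels, came from ShhCre; R26YFP/+ embryos, in which Cre made in Shh-expressing cells switches on a yellow fluorescent reporter. Intestine, colon and hindstomach epithelium was shaken loose in EDTA, with a stronger solution used on hindstomach. Forestomach epithelium was peeled by hand after Dispase. Tissue and isolation method therefore cannot be told apart for the forestomach, nor tissue and strength of solution for the hindstomach. Whether the numbered replicates of a tissue are different embryos is not in the labels, so the tests cover the spread among libraries, and that spread may be technical.

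Values are FPKM, fragments scaled to transcript length and to library size, which allows levels of different genes to be compared per length. Read counts are not given, but 96.0% to 97.4% of low values lay within 0.1 of a whole multiple of 1 step per library, against 20% if spread evenly. If that step is 1 fragment, the libraries held 51600000 to 121000000 fragments. The library labelled forestomach replicate 1 stood apart. Its 7 gastric glandular markers summed to 162800 FPKM and its 7 squamous markers to 1569 FPKM, against 33.1 and 38950.0 FPKM in forestomach replicate 2. In hindstomach the same gastric markers summed to only 1164 and 1460 FPKM, and the source of the high values was not tested. The tests of Lct, Mgam and Alpi and the counts of called genes in the gene lists are therefore given with and without forestomach replicate 1. The tests of Sis, Treh and Akp3 are given with it only. Across 12894 genes the libraries of a tissue had a Pearson r of 0.984 in intestine, 0.959 in colon and 0.98 in hindstomach, but 0.713 in forestomach. Defining markers were present in colon and hindstomach: Hoxb13, a hindgut gene, was at 30.3 and 41.1 FPKM in colon and at most 0.0487 FPKM elsewhere, and Cldn18, a gastric tight junction gene, was at 337 and 339 FPKM in hindstomach and at most 2.7 FPKM in intestine and colon.

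Lct was among the most abundant transcripts of the intestine. It stood at 389.5 and 515 FPKM in intestine replicates 1 and 2, at 300.5 and 93.6 FPKM in colon, at 49.3 and 88.1 FPKM in hindstomach, and at 0.142 and 0.0644 FPKM in forestomach. The intestinal libraries were highest, the colon libraries lay far apart from each other, and no 2 tissues overlapped. By rank within a library Lct was 113th and 79th from the top in intestine, and 14907th and 14347th in forestomach.

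Alpi followed Lct closely in level. It stood at 406 and 552 FPKM in intestine, at 316.5 and 94.1 FPKM in colon, at 83.8 and 104 FPKM in hindstomach, and at 0.121 and 0.0614 FPKM in forestomach. Colon and hindstomach overlapped for Alpi, since colon replicate 2 lay between the hindstomach libraries. The ratio of Lct to Alpi within a library was 0.96 and 0.932 in intestine and 0.949 and 0.995 in colon, against 0.589 and 0.845 in hindstomach, so Alpi was the higher of the pair in all 6 of these libraries.

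Mgam was the third member above 1 FPKM, and its levels divided the tissues differently. It stood at 57.1 and 56.99 FPKM in intestine, at 50.4 and 41.4 FPKM in colon, at 6.49 and 4.73 FPKM in hindstomach, and at 0.0192 and 0.0268 FPKM in forestomach. Colon was close to intestine in both libraries, and hindstomach lay well below them. Relative to the intestine mean, Mgam stood at 88.4% and 72.5% in colon replicates 1 and 2, whereas Lct stood at 66.5% and 20.7% and Alpi at 66.1% and 19.6%. That contrast between the members was not tested.

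The other 3 members were below 1 FPKM in every library. Sis stood at 0.642 and 0.68 FPKM in intestine, at 0.46 and 0.159 FPKM in colon and at 0.202 and 0.122 FPKM in hindstomach, and was listed at 0 in both forestomach libraries. Intestine was above colon and hindstomach, which overlapped. The steps put Sis at about 463 and 242 fragments in intestine, so the low values do not rest on single fragments, if the step is 1 fragment.

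Treh stood at 0.331 and 0.913 FPKM in intestine, at 0.324 and 0.0284 FPKM in colon, at 0.0639 and 0.17 FPKM in hindstomach, and at 0.0215 and 0 FPKM in forestomach. Its libraries of 1 tissue lay far apart, and intestine replicate 1 was barely above colon replicate 1. The values correspond to 82 and 112 fragments in intestine, 38 and 6 in colon, 15 and 18 in hindstomach, and 5 and 0 in forestomach, with the same reading of the step.

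Akp3 stood at 0.299 and 0.454 FPKM in intestine, at 0.266 and 0.037 FPKM in colon and at 0.195 and 0.277 FPKM in hindstomach, and was listed at 0 in both forestomach libraries. Intestine was above hindstomach by little, and colon overlapped hindstomach. Of the 3 low members Akp3 kept the largest part of its intestinal level in hindstomach, at 51.9% and 73.6% of the intestine mean, against 30.6% and 18.5% for Sis and 10.3% and 27.4% for Treh.

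**Figure D1:**
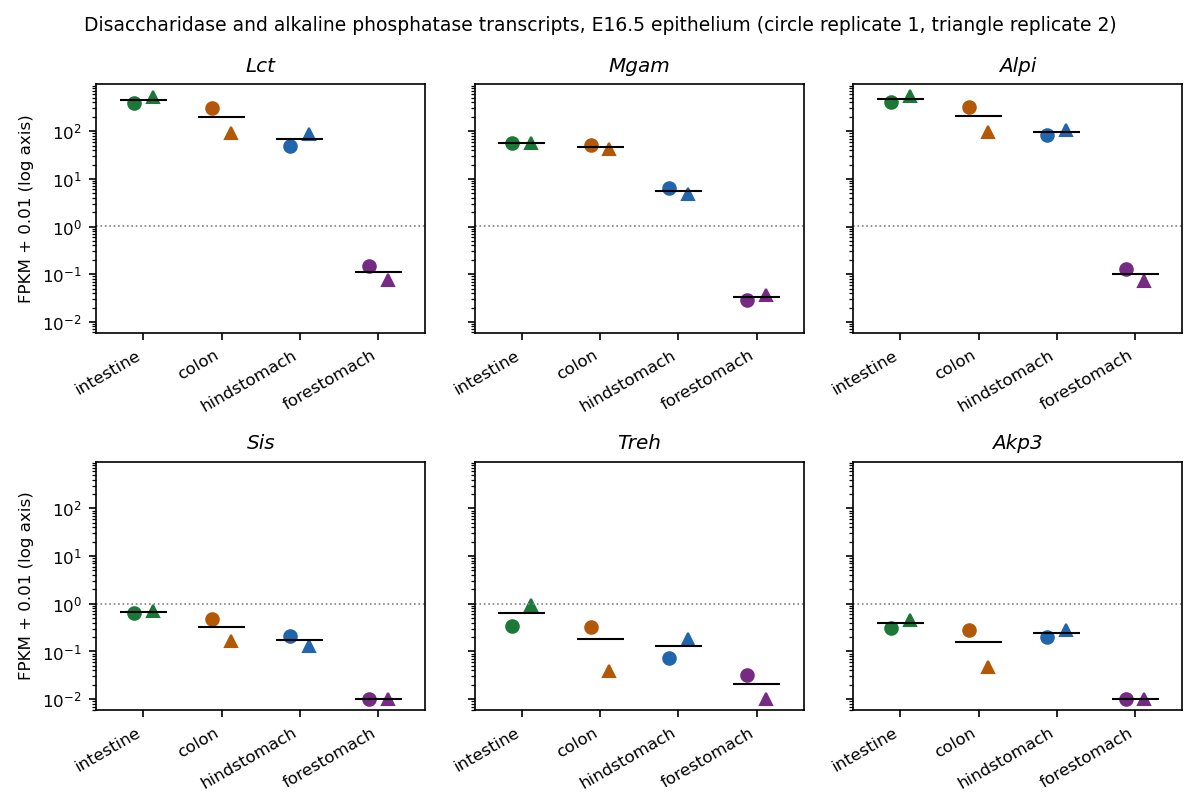
FPKM + 0.01 on a log axis for the 6 genes by tissue, with circles for replicate 1, triangles for replicate 2, bars for the mean of the 2 libraries and a dotted line at 1 FPKM. Lct, Mgam and Alpi lie above 1 FPKM in intestine, colon and hindstomach, while Sis, Treh and Akp3 lie below 1 FPKM in all 8 libraries.

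Lct, the enzyme of the suckling gut, thus stood far above Sis and Treh of the weaned gut in intestine, colon and hindstomach. Mgam, also listed below as a weaning-stage gene, was nearer to Lct in level. The FPKM ratio of Mgam to Lct was 0.147 and 0.111 in intestine, 0.168 and 0.442 in colon, and 0.132 and 0.0537 in hindstomach. The FPKM ratio of Lct to Sis was 607 and 757 in intestine, 653 and 590.5 in colon, and 244 and 722 in hindstomach. The ratio of Lct to Treh was 1178 and 563.5 in intestine, 928 and 3294 in colon, and 772.5 and 518 in hindstomach. All 3 tissues overlapped in the ratio of Lct to Sis. In the ratio of Lct to Treh intestine overlapped both other tissues, and both colon libraries lay above both hindstomach libraries, a difference that was not tested.

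The phosphatases showed a similar distance. The ratio of Alpi to Akp3 was 1357 and 1218 in intestine and 1190.0 and 2546 in colon, against 429 and 377 in hindstomach, where both libraries were below all 4 of intestine and colon. The genes are paralogs with 80.9% identical bases over their aligned coding sequence, and 35 of the 1631 windows of 50 bases in the Akp3 transcript occur unchanged in Alpi. How the authors assigned reads that match both is not stated in the material at hand, so the low Akp3 values are uncertain, and whether reads of Alpi contributed to them was not tested. Sis and Mgam, whose coding sequences are 65.1% identical, share no such window.

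Mgam and Sis, which are paralogs with overlapping substrates, differed in level. The ratio of Mgam to Sis was 89 and 83.8 in intestine, 110 and 261 in colon, and 32.1 and 38.8 in hindstomach. It was lowest in hindstomach and highest in colon, with no overlap between the 3 tissues.

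**Figure D2:**
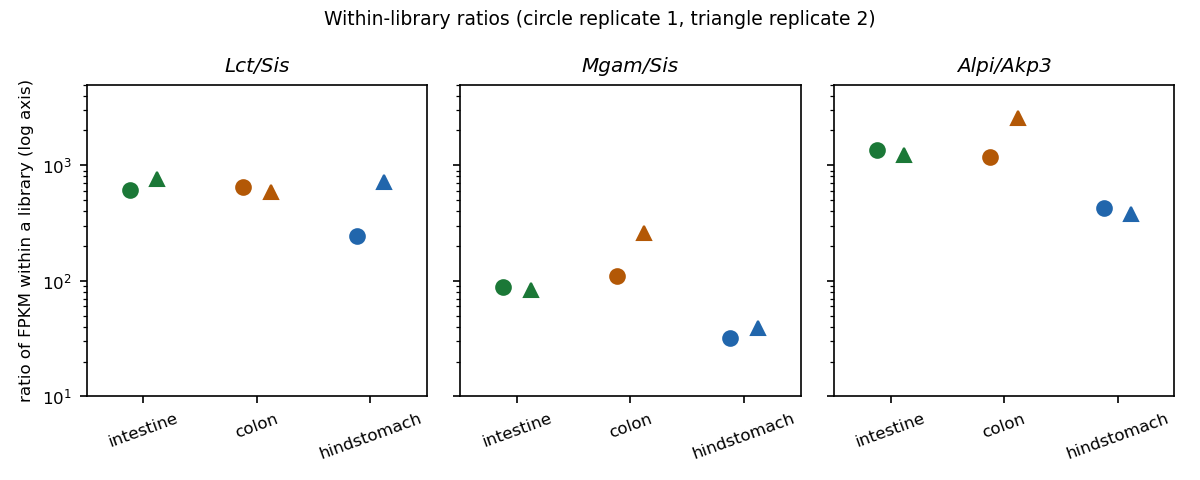
Ratio of FPKM within a library on a log axis for Lct over Sis, Mgam over Sis and Alpi over Akp3 in intestine, colon and hindstomach, with circles for replicate 1 and triangles for replicate 2. Forestomach is not drawn because Sis and Akp3 are listed at 0 there, and the hindstomach values of Alpi over Akp3, 429 and 377, lie below those of the other tissues.

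The 250 bases before the start site are shown for both contrasting pairs, since the abundant and the scarce gene of each pair can be compared there. Capitals mark matches on either strand to TTTAT or TTTAC (bound by Cdx factors), GTTAAT (part of the Hnf1 site) and AGATAA (bound by Gata factors). Sequences are from RefSeq on GRCm38.p6, 5′ to 3′ on the strand of the gene.
Lct: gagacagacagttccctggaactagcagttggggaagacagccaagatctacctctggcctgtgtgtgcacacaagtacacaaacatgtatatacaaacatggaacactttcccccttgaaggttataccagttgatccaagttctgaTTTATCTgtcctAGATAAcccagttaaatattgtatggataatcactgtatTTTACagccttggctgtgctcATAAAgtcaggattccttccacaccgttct
Sis: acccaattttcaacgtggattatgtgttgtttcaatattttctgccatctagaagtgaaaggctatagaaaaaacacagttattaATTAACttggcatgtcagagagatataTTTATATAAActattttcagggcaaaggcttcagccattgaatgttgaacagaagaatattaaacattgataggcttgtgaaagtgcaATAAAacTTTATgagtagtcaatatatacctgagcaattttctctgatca
Alpi: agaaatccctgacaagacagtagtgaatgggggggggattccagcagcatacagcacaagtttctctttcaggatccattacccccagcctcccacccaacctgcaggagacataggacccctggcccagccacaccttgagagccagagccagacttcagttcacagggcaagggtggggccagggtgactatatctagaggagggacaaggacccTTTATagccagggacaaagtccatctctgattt
Akp3: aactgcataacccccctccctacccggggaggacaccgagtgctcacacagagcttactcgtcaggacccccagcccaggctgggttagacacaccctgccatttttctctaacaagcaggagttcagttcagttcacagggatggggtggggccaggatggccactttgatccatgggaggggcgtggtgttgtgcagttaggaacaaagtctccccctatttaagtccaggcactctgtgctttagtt
The windows are chr1:128328319-128328568 (minus strand) for Lct, chr3:72967864-72968113 (minus strand) for Sis, chr1:87101607-87101856 (minus strand) for Alpi and chr1:87124704-87124953 (plus strand) for Akp3.

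The Lct window held 3 matches to the Cdx letters and 2 to AGATAA, of which 1 pair overlaps. The Sis window held 4 matches to the Cdx letters and 1 to GTTAAT, Alpi held 1 to the Cdx letters, and Akp3 held none of the motifs. Mgam, also searched, held 2 Cdx and 2 AGATAA matches, and Treh none. TTTAT on either strand also overlaps TATA-like sequence, and short motifs are common: 51.2% of 32851 promoter windows of this length held TTTAT or TTTAC, 6.43% held GTTAAT and 9.99% held AGATAA. The count of Cdx letters was higher in the scarce Sis than in the abundant Lct, and the matches are letters in a window, not sites shown to be bound.

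The genes lie on 4 chromosomes of GRCm38 and are annotated as protein coding. Lct spans 128284756 to 128328318 on chromosome 1, where Alpi (87098002 to 87101606) and Akp3 (87124973 to 87127912) lie on opposite strands. Sis spans 72888557 to 72967863 on chromosome 3, Mgam 40628831 to 40769123 on chromosome 6, and Treh 44673233 to 44686305 on chromosome 9.

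Differences between tissues were tested for Lct, Mgam and Alpi, the 3 members that reached 1 FPKM in 2 or more libraries. They passed that filter through intestine, colon and hindstomach, so a large difference from forestomach was bound to appear. A gene was called at an adjusted p under 0.05 and at least 2-fold change, with limma on log2(FPKM + 1) and Benjamini-Hochberg adjustment over 12894 genes. As deposited, the median log2 fold change over all genes was -0.25 in intestine minus hindstomach, -0.23 in intestine minus colon, 0.41 in colon minus forestomach and 0.39 in hindstomach minus forestomach. Scaling by median of ratios brought these to 0.0011, 0.08, 0.02 and 0.05, and no member turned its direction.

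Between intestine and hindstomach only Mgam was called with all libraries. Mgam was higher in intestine by 3.15 ± 0.21 (log2 fold change ± SE, adjusted p = 0.0041 by limma). In this comparison 2.55% of all genes were called higher. Over 14 alternatives the adjusted p for Mgam ran from 0.00125 to 0.105, and the call ended without intestine replicate 1 (0.0866), intestine replicate 2 (0.105) or hindstomach replicate 2 (0.0662).

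Lct differed by 2.74 ± 0.57 between intestine and hindstomach and missed the threshold (limma adjusted p = 0.0504). With forestomach replicate 1 left out of the shared estimate of spread, Lct was called (limma adjusted p = 0.0217), in a fit that called 7.42% of all genes higher. Alpi differed by 2.33 ± 0.54 (adjusted p = 0.0645), and was called without that library too (0.0292). Over the alternatives the limma adjusted p ran from 0.0217 to 0.349 for Lct and from 0.0195 to 0.404 for Alpi. Both genes were also called without either colon library or without forestomach replicate 2.

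Between intestine and colon none of the 3 tested members was called. The log2 fold change was 1.41 ± 0.57 for Lct, 1.45 ± 0.54 for Alpi and 0.31 ± 0.21 for Mgam (limma adjusted p = 0.35, 0.337 and 0.51, and 0.144, 0.132 and 0.231 without forestomach replicate 1). Over all genes 0.38% were called, all of them lower in intestine. By limma 0% were called higher, with 1829 genes at an unadjusted p under 0.05, and without forestomach replicate 1 the shares were 0.04% higher and 2.5% lower. Dropping colon replicate 2 left a difference of 0.57 for Lct and 0.58 for Alpi, while dropping colon replicate 1 left 2.25 and 2.32, so 1 colon library decides the size of both.

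Between colon and hindstomach Mgam was higher in colon by 2.83 ± 0.21 (limma adjusted p = 0.00477), with 1.07% of all genes called higher. The call ended without colon replicate 1 (0.0963), colon replicate 2 (0.0743) or hindstomach replicate 2 (0.0846), over a range of 0.00148 to 0.0963. Lct differed by 1.33 ± 0.57 and Alpi by 0.88 ± 0.54, neither called (adjusted p = 0.425 and 0.637). For Lct the order of levels was therefore intestine, colon, hindstomach and forestomach, with neighbours that did not pass the test between intestine and colon or between colon and hindstomach.

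Against the forestomach all 3 were called in each other tissue, which the filter favoured. In intestine minus forestomach, where 11.3% of all genes were called higher, Lct differed by 8.67 ± 0.57, Alpi by 8.76 ± 0.54 and Mgam by 5.83 ± 0.21 (limma adjusted p = 5.70e-04, 4.85e-04 and 9.88e-05). In hindstomach minus forestomach, where 4.26% were called higher, the differences were 5.92 ± 0.57 for Lct, 6.44 ± 0.54 for Alpi and 2.68 ± 0.21 for Mgam (adjusted p = 0.00572, 0.0038 and 0.00304). Lct and Alpi lost the call in hindstomach minus forestomach without hindstomach replicate 2 (adjusted p = 0.0599 and 0.0504), over ranges of 0.00169 to 0.0599 and 0.00113 to 0.0504. In colon minus forestomach, with 9.2% called higher, Lct differed by 7.26 ± 0.57, Alpi by 7.32 ± 0.54 and Mgam by 5.51 ± 0.21 (adjusted p = 0.00131, 0.00112 and 1.05e-04).

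Without forestomach replicate 1 the share of all genes called higher was 4.49% in colon minus hindstomach, 16.6% in intestine minus forestomach, 19.1% in colon minus forestomach and 14.3% in hindstomach minus forestomach.

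**Figure D3:**
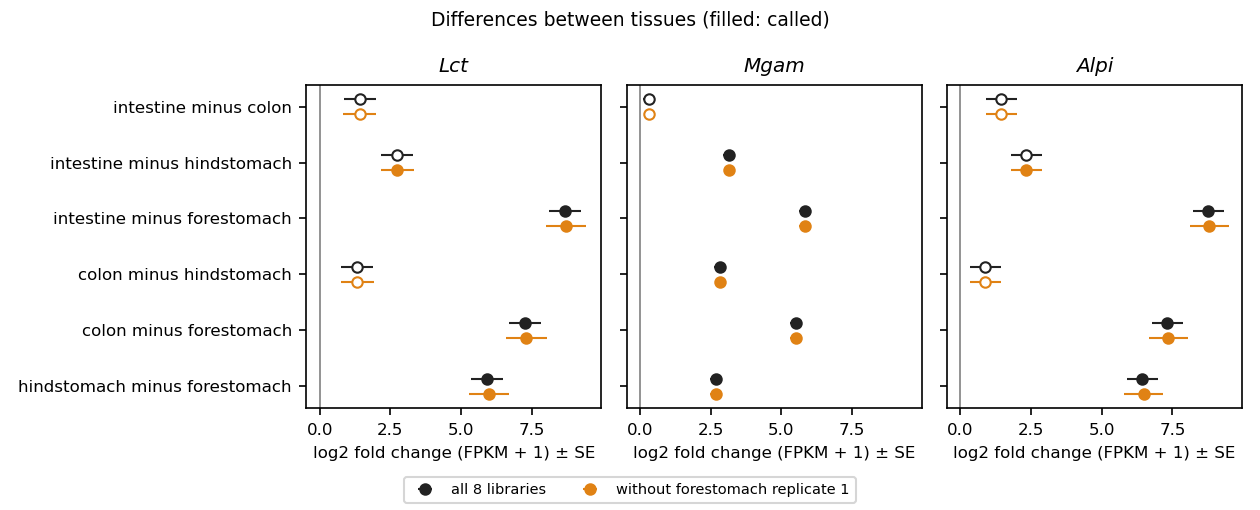
Log2 fold change of FPKM + 1 with its SE for Lct, Mgam and Alpi in 6 comparisons, with filled points where the gene was called, in black for the fit of all 8 libraries and in orange for the fit without forestomach replicate 1. Lct and Alpi become called in intestine minus hindstomach without that library, and Mgam lies near 0 in intestine minus colon, at 0.31.

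Sis, Treh and Akp3 were given no test by the filter. Without the filter, and with 0.1 FPKM added in place of 1, which was chosen after seeing the data, Sis was higher in intestine than in forestomach by 2.93 ± 0.43 (limma adjusted p = 0.0113) and in colon than in forestomach by 1.93 ± 0.43 (0.0499). Akp3 was higher in intestine than in forestomach by 2.23 ± 0.49 (0.0373). Without the filter and with 1 FPKM added, none of the 3 was called in any of the 6 comparisons, the lowest adjusted p being 0.0161 for Sis at a change under 2-fold.

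Both the enterocyte markers and the members were highest in intestine. The 7 markers, Vil1, Fabp1, Fabp2, Cdh17, Apoa1, Apoa4 and Cdhr5, summed to 21470.0 and 31390.0 FPKM in intestine, 16020.0 and 5049 FPKM in colon, 4046 and 4667 FPKM in hindstomach, and 1254 and 11.6 FPKM in forestomach, and none of them was at 0 in any library. Between intestine and hindstomach 1 of the 7 was called higher by limma, and all 7 were without forestomach replicate 1, against 2.55% and 7.42% of all genes. In these bulk samples fewer enterocytes and less RNA per enterocyte cannot be told apart, and the part of either in the differences above was not tested. Relative to their own intestine mean the markers ran from 58.3% to 80.7% in colon replicate 1, which takes in Lct (66.5%) and Alpi (66.1%), with Mgam (88.4%) above. In colon replicate 2 they ran from 16.46% to 59.1%, again with Lct (20.7%) and Alpi (19.6%) inside and Mgam (72.5%) above. In hindstomach replicate 1 they ran from 12.35% to 24.1%, with Alpi (17.5%) inside and Lct (10.9%) and Mgam (11.4%) below. In hindstomach replicate 2 they ran from 11.0% to 25.7%, with Lct (19.5%) and Alpi (21.8%) inside and Mgam (8.3%) below. Mgam was thus above the range of the enterocyte markers in both colon libraries and below it in both hindstomach libraries. Akp3 was above that range in both hindstomach libraries (51.9% and 73.6%) and below it in colon replicate 2 (9.82%). Treh was below it in both colon libraries (52.0% and 4.57%) and hindstomach replicate 1 (10.3%), and above it in hindstomach replicate 2 (27.4%). Within colon and hindstomach, Sis left the range only in hindstomach replicate 1, where it was above (30.6%).

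Markers of other cell types also had unequal levels, and which cells made these transcripts was not tested. The 7 mesenchyme genes summed to 270.3 and 57.7 FPKM in intestine, 544 and 1220.0 FPKM in colon, 154 and 275 FPKM in hindstomach, and 2822 and 26.3 FPKM in forestomach, none at 0. In colon replicate 2, where all 6 members were lower than in colon replicate 1, the mesenchyme sum was the higher of the pair. Gata4 (29.1 and 8.64 FPKM in colon replicates 1 and 2) and Pdx1 (2.79 and 0.297 FPKM) were lower in replicate 2. Cdx1 was nearly level (137.7 and 134.3 FPKM), and the 5 goblet cell markers summed to 1672 and 1935 FPKM. The part of any of these differences in the gap was not tested. The 7 pancreatic acinar genes summed to 2250.0 and 378 FPKM in intestine, 1415 and 427 FPKM in colon, 3466 and 916 FPKM in hindstomach, and 6.53 and 0.193 FPKM in forestomach, where 3 of them were at 0 in replicate 2, and 1 was at 0 in intestine replicate 2.

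**Figure D4:**
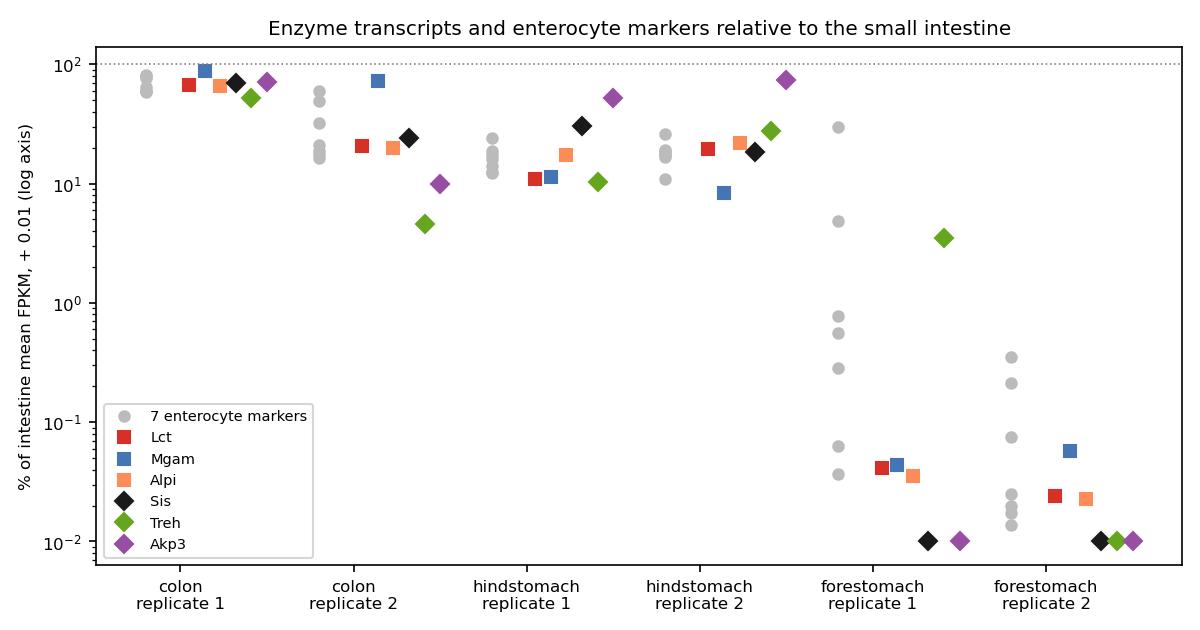
Level of each gene as a percentage of its own intestine mean, plus 0.01, on a log axis in the 6 libraries of colon, hindstomach and forestomach, with grey circles for the 7 enterocyte markers, squares for Lct, Mgam and Alpi and diamonds for Sis, Treh and Akp3. Mgam lies above the grey circles in both colon libraries and below them in both hindstomach libraries, and Akp3 lies above them in hindstomach, at 51.9% and 73.6%.

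The genes most like each tested member were sought among 12444 genes by Pearson's r of log2(FPKM + 1) over the 8 libraries, as a description in which all points share the same libraries and the forestomach lies near 0. For Lct they were Clec2h (0.998), Apoc3 (0.998), Alpi (0.998), Slc3a1 (0.997) and Mov10 (0.997). For Alpi they were Apoc3 (0.9996), Lct (0.998), Clec2h (0.997), Prap1 (0.996) and Cps1 (0.996). For Mgam they were Tmem236 (0.999), Hao2 (0.998), Abat (0.997), Aoc1 (0.996) and Nol4l (0.995), none of which was among those of Lct or Alpi. Hao2, a peroxisomal oxidase gene, showed the pattern of Mgam in FPKM, at 40.3 and 40.8 in intestine, 48.9 and 35.6 in colon, 5.57 and 3.6 in hindstomach, and 0.0043 and 0 in forestomach. Apoc3, an apolipoprotein gene, showed that of Lct and Alpi, at 580.5 and 915 in intestine, 426 and 126 in colon, 104 and 143 in hindstomach, and 0.313 and 0.0884 in forestomach. The r between Mgam and Lct was 0.945.

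Of the genes that take up and use the sugars released by the disaccharidases, 1 passed the test between intestine and hindstomach. Of 22 listed genes 21 were in the table and 18 were tested, and 17 of these were not called, where 2.55% of all genes were called higher, with a median log2 fold change of 1.22 against -0.25 over all genes. Without forestomach replicate 1, 10 were called higher and 1 lower, in a fit that called 7.42% and 9.96% of all genes. The called gene was Tkfc, which encodes a kinase of fructose breakdown, at 82.6 and 97.2 FPKM in intestine and 20.2 and 18.9 FPKM in hindstomach (2.14 ± 0.41, limma adjusted p = 0.0434). Slc5a1, the sodium-coupled transporter of glucose and galactose, stood at 126 and 159 FPKM in intestine and 21.9 and 22.2 FPKM in hindstomach (adjusted p = 0.178). Between intestine and colon none of the 18 was called, with or without forestomach replicate 1, with a median of 0.77 against -0.23 over all genes, and the glucose transporter gene Slc2a2, among the largest differences, stood at 13.8 and 19.2 FPKM in intestine and 10.8 and 1.61 FPKM in colon.

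Of 17 genes described in the suckling enterocyte of mouse or rat, Lct included, 8 were called higher in intestine than in hindstomach and none lower, with a median log2 fold change of 2.06 against -0.25 over all genes, of which 2.55% were called higher. Without forestomach replicate 1, 14 were called higher, against 7.42% of all genes. Amn and Cubn encode the partners of a receptor for endocytic uptake. Amn stood at 148 and 163 FPKM in intestine and 14.8 and 15.4 FPKM in hindstomach (3.28 ± 0.26, limma adjusted p = 0.00708), and Cubn at 22.6 and 25.6 FPKM against 2.42 and 5.26 FPKM (adjusted p = 0.0223). Fcgrt, the neonatal Fc receptor gene, stood at 890 and 1322 FPKM against 170 and 226 FPKM and was not called (0.278). None of the 17 was called between intestine and colon, with or without forestomach replicate 1.

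The list of 9 genes that rise toward weaning was split by level. Sis, Treh, Akp3, Cyp3a11 and the arginase gene Arg2 fell under the filter, and the 4 tested included Mgam, Slc2a5 and Ces2a. Slc2a5, the fructose transporter, was low, at 1.93 and 3.01 FPKM in intestine and 0.613 and 0.501 FPKM in hindstomach (limma adjusted p = 0.269). Mgam was the 1 gene of the list called higher in intestine than in hindstomach, where 2.55% of all genes were, and all 4 were called without forestomach replicate 1, where 7.42% were. Mgam was thus abundant before birth, although the list is of weaning-stage genes.

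Other alkaline phosphatase genes were scarce. Alpl, the tissue-nonspecific form, stood at 0.152 and 0.0373 FPKM in intestine, 0.199 and 0.589 FPKM in colon, 2.12 and 1.53 FPKM in hindstomach, and 0.339 and 1.36 FPKM in forestomach, with a log2 fold change of -1.36 ± 0.33 in intestine minus hindstomach that missed the threshold with all libraries (limma adjusted p = 0.0702). It was called lower without forestomach replicate 1 (adjusted p = 0.0116), where 9.96% of all genes were. Alppl2 was at most 0.00859 FPKM in any library. The 4 measured phosphatase genes summed to 406 and 553 FPKM in intestine, of which Alpi held 406 and 552 FPKM.

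Of 23 factors known to act on the promoters of these enzymes or on the timing of the switch, 22 were tested. Cdx1 and Cdx2, the intestinal homeobox factors, were higher in intestine than in hindstomach, Cdx2 at 133 and 135 FPKM against 24.4 and 16.6 FPKM (2.67 ± 0.23, limma adjusted p = 0.00833), and Foxa1 and Klf4 were lower. In this comparison 2.55% of all genes were called higher and 2.47% lower. Without forestomach replicate 1, 7 factors were called higher and 4 lower, against 7.42% and 9.96% of all genes. In intestine minus colon 2 factors, Foxa1 among them, were called lower and none higher, where 0.38% of all genes were called lower. Without forestomach replicate 1, 5 were called lower and none higher, against 2.5% of all genes called lower. Prdm1, a repressor known in mouse to hold back weaning-stage genes before weaning, was named after its values were seen. It stood at 28.2 and 28.6 FPKM in intestine, 21.4 and 15.2 FPKM in colon, 5.75 and 4.42 FPKM in hindstomach, and 1.48 and 17.7 FPKM in forestomach. The number of calls between intestine and hindstomach depends on single libraries: limma called 22 genes of the whole table when hindstomach replicate 1 was dropped, and none when the dropped library was hindstomach 2, intestine 1 or intestine 2 (1643, 1878 and 1386 at an unadjusted p under 0.05).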

How the data were processed

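The authors' deposited table gives FPKM for 23393 gene symbols, of which 8 library columns were used; 4 columns match no listed sample and were left out. STAR 2.4.2a and GRCm38 (mm10) are named in the submitters' processing notes. The program that made the FPKM, its annotation and its use of strand were not found in the labels, so reads of overlapping or near-identical genes may be mixed. FPKM also depends on composition: the top 10 genes held 52.5% of summed FPKM in forestomach replicate 1 and 6.27% to 17.4% elsewhere.

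FPKM were taken as log2(FPKM + 1), keeping the 12894 genes that reached 1 FPKM in 2 or more libraries. limma 3.58.1 (R 4.3.3, mean-variance trend) fitted 4 tissue means and 6 comparisons, and was tested on simulated data. Fold changes on this scale understate the change of low genes. When a library was left out, its tissue's lone library was assumed to vary like the others. Alternatives were the pseudocount, the filter, scaling, a replicate block, a fit of 6 libraries and each library left out. Promoters came from RefSeq (6 of 6 members matched), and positions and transcript lengths from a GENCODE annotation of GRCm38 that held 23257 of the symbols.

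Named genes were the 6 members, the 5 genes most like each tested member (predicted models left out), and up to 4 genes per list with the largest change in intestine minus hindstomach and intestine minus colon. Members and lists were chosen with earlier results of these data known. Some genes that this rule names are not reported here.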

Additional observations from a re-analysis of the deposited data

How the results depend on the processing

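None of the 18 member fold changes turned its direction over 243 alternatives: 224 kept their side of the threshold, 8 lost a call and 11 gained one. The number of genes called over the whole table was less stable. Leaving out each library in turn gave 0 to 317 genes for intestine minus colon (49 with all libraries), 0 to 2173 for intestine minus hindstomach (648), 513 to 3949 for intestine minus forestomach (2201), 0 to 949 for colon minus hindstomach (194), 423 to 3552 for colon minus forestomach (1497) and 75 to 3126 for hindstomach minus forestomach (721). The limma fits that called 0 had 389 to 2154 genes at an unadjusted p under 0.05. With a pseudocount of 0.1 FPKM the counts were 22 for intestine minus colon and 103 for colon minus hindstomach. Without the filter intestine minus hindstomach had 392, and 362 with the pseudocount of 0.1 FPKM as well, an alternative chosen after seeing the data. Median-of-ratios scaling gave 455 for hindstomach minus forestomach. The fit of the 6 intestine, colon and hindstomach libraries gave 314 for intestine minus colon, 2168 for intestine minus hindstomach and 948 for colon minus hindstomach. The cause of these shifts was not tested. Median-of-ratios scaling also changed the balance of directions: 65.9% of calls were then higher in intestine minus hindstomach (50.8% as deposited), 57.0% in colon minus forestomach (79.2%) and 49.0% in hindstomach minus forestomach (76.1%).

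With the replicate number as a block the counts were 9 for intestine minus colon, 237 for intestine minus hindstomach, 99 for colon minus hindstomach and 335 for hindstomach minus forestomach, and no member changed its side of the threshold. The numbers do not pair the samples by any label: the correlation of the deviations of same-numbered libraries ran from -0.578 (intestine and colon) to 0.27 (intestine and hindstomach). If the step is 1 fragment, replicate 1 was the deeper library in intestine, hindstomach and forestomach, but replicate 2 was in colon. The deeper libraries held 103100000 to 121000000 fragments and the others 51600000 to 59900000, so the block does not follow depth. Sis, Treh and Akp3 lost their tests to the filter at 1 FPKM, and 2 libraries a tissue limit every test.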
